A study of Bos taurus and Bos indicus with 3 samples.

Results

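A group of 10 inflammatory and T helper cytokine genes, TNF, IL6, IL10, IL12A, IL12B, IFNG, LTA, IL2, IL4 and IL16, was followed in leukocyte mRNA of cattle. The members were found by their gene symbol or their bovine entry name in the protein database, and all 10 stood in the table, each on 1 of its 25968 gene models. White blood cells came from pooled tail vein blood of 40 Holstein cows and 7 Jersey cows, 2 taurine breeds kept in Wisconsin, and of 45 Cholistani cows, an indicine breed kept in Punjab, Pakistan. The ages of the cows and any treatment were not given in the sources used here, and only the Cholistani RNA was shipped in a dry storage matrix. Each pool gave 1 sequenced library of polyadenylated RNA, and the study's aim was to compare the breeds. With 1 library per breed there was no replicate, so no test, error or p-value could be computed, and breed, farm and RNA transport cannot be told apart. Values are FPKM (fragments per kilobase of exon, scaled for library size), to which the authors applied upper-quartile normalization. Levels are therefore not those of FPKM scaled to the mapped total, and can be read only against other values of these libraries. The number of fragments behind a value is unknown, so genes whose value is 0 are called listed at 0 and get neither ratio nor limit.

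Cytokines are small secreted proteins by which immune cells signal to each other. Monocytes, macrophages and activated T cells make TNF and IL6, which start fever, the acute phase response and the recruitment of leukocytes, and IL10 restrains the same cells. IL12A and IL12B encode the subunits of IL12, which directs helper T cells towards the type that makes IFNG, while IL4 marks the type that helps antibody responses and IL2 drives T cell division. LTA is a lymphocyte-made relative of TNF, and IL16 is stored in lymphocytes as a precursor and attracts cells that carry CD4. Most of these genes are nearly silent in resting blood cells and are switched on within hours of a stimulus, and their messages are short-lived.

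The 3 libraries held leukocyte RNA by their markers. The 7 T cell markers found by name summed to 5577 FPKM in the Holstein pool, 5655 in the Jersey pool and 11621 in the Cholistani pool, the 7 B cell markers to 8505, 10817 and 18397, the 7 monocyte markers to 4113, 2453 and 4149, and the 8 neutrophil markers to 39098, 30831 and 35819 FPKM. The FPKM of all models summed to 5949765, 6288105 and 9518432 in the same order. Because these sums differ, each fold below was also computed after rescaling the libraries to their mean sum, which moved the median log2 fold of all 15284 models above 0 in any library from 0.15 to -0.43 for Cholistani against Holstein and from 0.12 to -0.41 against Jersey. In bulk RNA, fewer cells of a type and less RNA per cell cannot be told apart.

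Of the 10 cytokines, 5 were above 0 FPKM in the Holstein pool, 4 in the Jersey pool and 7 in the Cholistani pool, where 51.6%, 53.1% and 52.6% of all models were. TNF, LTA, IL12B and IL16 were above 0 in every library. IL6 and IFNG were above 0 only in Cholistani, IL10 was above 0 in Holstein and Cholistani, and IL12A, IL2 and IL4 were listed at 0 in all 3 libraries. Of 25963 models with a value given for each library, 15284 were above 0 in any library and the others were listed at 0 in all 3. In Holstein and Jersey IL16 had the highest level, followed by TNF and LTA. In Cholistani TNF had the highest level, followed by IL16, IL10, LTA, IFNG, IL6 and IL12B. With 1 library per breed there is no spread against which neighbours in these orders could be compared.

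**Figure D1:**
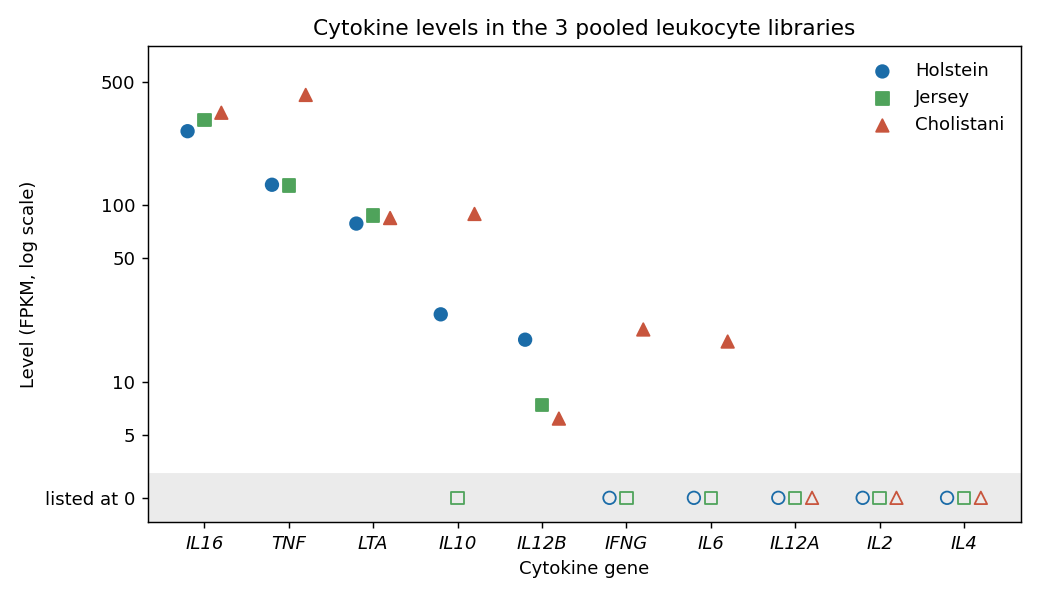
Level of each of the 10 cytokine genes (FPKM, log scale) by breed, with circles for Holstein, squares for Jersey and triangles for Cholistani, each standing for 1 pooled library; open symbols in the grey band are genes listed at 0. The Cholistani point stands apart from both taurine points for TNF (422 against 131 and 130 FPKM) and IL10, the 3 points lie close together for IL16 and LTA, and IL6 and IFNG have a value in Cholistani alone.

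TNF, the central inflammatory cytokine, lay on chromosome 23 from 27531128 to 27534188 (btau4.0, the authors' build) and was listed as TNFA_BOVIN. It had 131 FPKM in the Holstein pool, 130 in the Jersey pool and 422 in the Cholistani pool. The taurine values were nearly equal, and the Cholistani value was 3.23 times the Holstein value and 3.26 times the Jersey value. TNF stood above 59.8% of the models detected in each taurine library and above 81.8% of those detected in Cholistani. Among the 2385 models with a gene name and a mean level within 2-fold of that of TNF, 97.9% had a lower fold against Holstein and 97.8% against Jersey. After rescaling, the log2 fold of TNF (of FPKM + 1, as all log2 folds here unless stated) was 1.01 against Holstein and 1.10 against Jersey, in place of 1.68 and 1.70.

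LTA is the neighbour of TNF and, like it, encodes a ligand of the TNF receptors. It lay on chromosome 23 from 27535254 to 27537228, with 1065 bases between the listed spans of both genes, and was listed as TNFB_BOVIN. It had 78.8 FPKM in the Holstein pool, 87.5 in the Jersey pool and 84.7 in the Cholistani pool, so its levels lay close together where those of TNF did not. The ratio of TNF to LTA within a library, which no rescaling of a library can alter, was 1.66 (Holstein), 1.48 (Jersey) and 4.98 (Cholistani). The log2 fold of LTA between Cholistani and Holstein was 0.10 as deposited, -0.09 when centred on the median of models with at least 10 FPKM and -0.57 after rescaling.

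IL10 restrains macrophages and T helper cells. Its model on chromosome 16 was listed with the span of a whole block of overlapping models, from 3533476 to 3861757, so the listed position is wider than the gene. It had 24.1 FPKM in Holstein, was listed at 0 in Jersey and had 89.3 FPKM in Cholistani, 3.70 times the Holstein value (log2 fold 1.85, and 1.18 after rescaling). Its cytokine relatives in the same block, IL19, IL20 and IL24, were listed at 0 in all 3 libraries (named after their values were seen). Of the models with a Holstein level within 2-fold of that of IL10, 7.06% (224 of 3171) were listed at 0 in Jersey, as IL10 was, or 1.29% (16 of 1239) of those with a gene name. The level of IL10 per unit of TNF was 0.184 in Holstein and 0.212 in Cholistani, so both genes differed between these libraries by similar factors.

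IL6, which drives the acute phase response and the maturation of B cells, lay on chromosome 4 from 32756536 to 32760911. It was listed at 0 in Holstein and Jersey and had 16.9 FPKM in Cholistani. IFNG, the product of activated T and natural killer cells that arms macrophages, lay on chromosome 5 (49351209 to 49356033), was listed at 0 in both taurine libraries and had 19.8 FPKM in Cholistani. Both were low, above 16.6% and 19.2% of the models detected in that library. Of all models detected in Cholistani, 7.18% were listed at 0 in both taurine libraries. Among models within 2-fold of the level of IL6 this share was 22.2% (658 of 2962), or 5.41% (54 of 998) of those with a gene name. For IFNG it was 19.6% (625 of 3183) and 3.86% (43 of 1113).

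**Figure D2:**
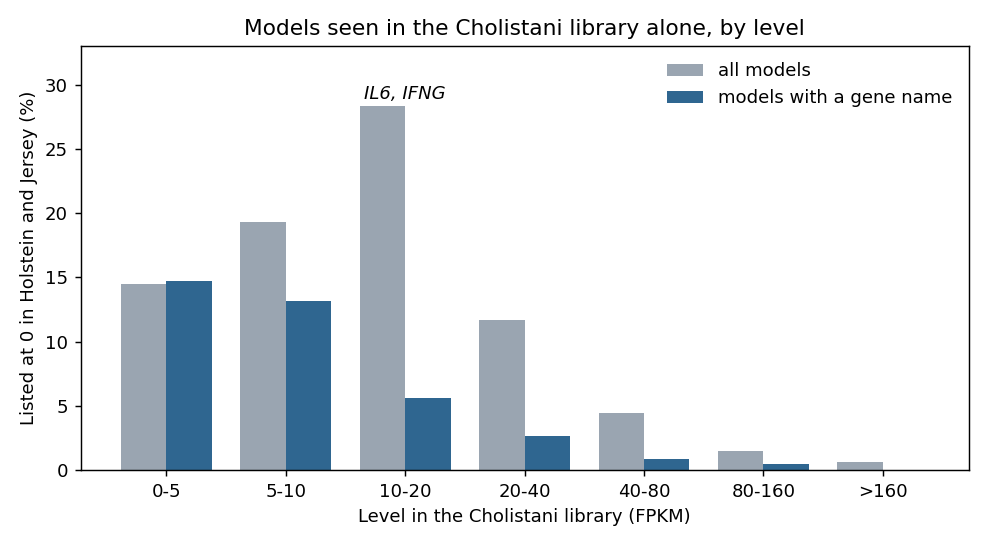
Share of models listed at 0 in both Holstein and Jersey (%) by their level in Cholistani (FPKM), for all models (grey) and for models with a gene name (blue), as bars. IL6 and IFNG lie in the class from 10 to 20 FPKM, where the share was 28.3% of all models and 5.64% of those with a gene name, and above 160 FPKM it was 0.662% and 0.0339%.

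IL12B lay on chromosome 7 from 70707625 to 70726497 and encodes the subunit that IL12 shares with IL23. It had 17.3 FPKM in the Holstein pool, 7.40 in the Jersey pool and 6.19 in the Cholistani pool, and was thus highest in Holstein, unlike TNF, IL6, IL10 and IFNG. IL12B was low in each library, above 16.1% (Holstein), 6.26% (Jersey) and 4.13% (Cholistani) of the models detected there. Its log2 fold was -1.35 for Cholistani against Holstein, -0.23 for Cholistani against Jersey and -1.12 for Jersey against Holstein, but a pseudocount of 10 FPKM brought the first to -0.76 and the last to -0.65, within 2-fold. After rescaling these folds were -1.95, -0.74 and -1.21 in the same order. Of the 813 models with a gene name within 2-fold of its mean level, 23.5% were lower by 2-fold or more in Cholistani than in Holstein and 6.15% in Jersey than in Holstein. Of all 2685 models of that level, 26.7% and 10% were. IL12A, which encodes the partner subunit found in IL12 alone, lay on chromosome 1 from 109218782 to 109225482 and was listed at 0 in all 3 libraries.

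IL16 lay on chromosome 21 from 26860031 to 26941499. It was the most abundant cytokine of the group in both taurine libraries, with 263 FPKM in the Holstein pool, 304 in the Jersey pool and 335 in the Cholistani pool. Its level stood above 77.3%, 80.5% and 77.7% of detected models, nearly the same place in each library. The log2 fold between Cholistani and Holstein was 0.35, turned to -0.33 after rescaling, and was close to the median of models of its level, of which 51.5% had a lower fold.

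IL2 on chromosome 17, from 36594121 to 36597288, and IL4 on chromosome 7, from 20449965 to 20457853, were listed at 0 in all 3 libraries. So were IL21, the next named gene after IL2, and IL13, which lies 17432 bases beyond IL4 and shares its receptor chain. Of the 23 other cytokine genes found by name, 13 were listed at 0 in all 3 libraries, among them the T helper products IL3, IL5, IL9, IL17A, IL17F and CSF2 (the genes in this paragraph that are not among the 10 were named after their values were seen). A further 9 listed cytokine genes were not found by name. Over all models, 15284 of 25963 were above 0 in any library and the others were listed at 0 in all 3. None of the T helper products named in this paragraph had a value, whereas IFNG had one in Cholistani alone.

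Set side by side, 4 of the 7 cytokines above 0 in any library were higher by 2-fold or more in Cholistani than in Holstein (TNF, IL6, IL10 and IFNG, of FPKM + 1), 1 was at least 2-fold lower (IL12B) and 2 were neither (LTA and IL16). Of all 15284 models, 19.7% were at least 2-fold higher and 13.7% lower (3006 and 2099 models, and 1773 and 4199 with rescaled values). Against Jersey the same 4 were higher, none was lower and LTA, IL16 and IL12B were neither, where 17.2% of models were higher and 14.2% lower (2625 and 2177 models, and 1588 and 4004 with rescaled values). Against both taurine libraries at once, these 4 were higher and none was lower, where 14.4% of models were higher and 8.89% lower. The comparisons share the Cholistani library. Of all models with a mean level within 2-fold of the gene's, 37.3% (IL6), 35.2% (IFNG), 14.6% (IL10) and 13.4% (TNF) were at least 2-fold higher than in Holstein. Against Jersey these shares were 34%, 32%, 12.3% and 11%. Among models with a gene name they were 23.5%, 20.6%, 11.3% and 12.6% against Holstein and 18.7%, 16.9%, 10.2% and 10.1% against Jersey. Of these 4 genes, IL6 and IFNG had no Holstein value and IL6, IFNG and IL10 no Jersey value, so only TNF had a ratio against both. Over the 5 cytokines above 0 in both libraries the median log2 fold between Cholistani and Holstein was 0.35, that of IL16, against 0.17 over 12349 models, and over the 4 above 0 in Cholistani and Jersey it was 0.05, against 0.16 over 12538 models.

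Between Jersey and Holstein no cytokine was at least 2-fold higher and 2 were at least 2-fold lower in Jersey, IL10, which was listed at 0 there, and IL12B, where 7.99% of models were higher and 4.7% lower. TNF, LTA and IL16 had log2 folds of -0.01, 0.15 and 0.21.

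**Figure D3:**
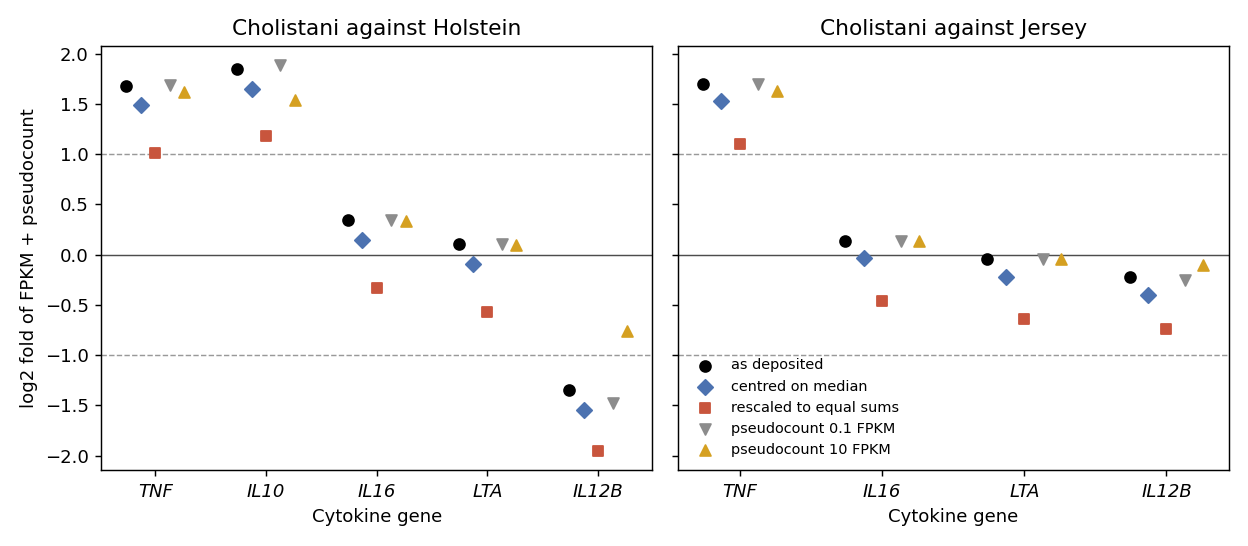
Log2 folds of the cytokines above 0 in both libraries, Cholistani against Holstein (left) and against Jersey (right), as deposited and under 4 other settings; dashed lines mark 2-fold. TNF stayed at or above 2-fold under each setting shown (lowest 1.01), IL12B against Holstein left it with a pseudocount of 10 FPKM, and LTA and IL16 stayed within 2-fold.

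Of the 17 receptor genes listed for these cytokines, 9 were found by name. IL2RG, the gamma chain shared by the receptors of IL2 and IL4, had 2305 FPKM in the Holstein pool, 2207 in the Jersey pool and 4615 in the Cholistani pool. The other chains of the IL2 receptor, IL2RB (560, 473 and 850 FPKM) and IL2RA (114, 74.9 and 111 FPKM), were present in all 3 libraries while IL2 itself was listed at 0. IL2RG and IL12RB1, a chain of the IL12 receptor with 153, 154 and 307 FPKM, were just past 2-fold higher in Cholistani than in Holstein, and neither was past it after rescaling. The partner chain IL12RB2 had 37.8, 20.7 and 24.8 FPKM.

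TNFRSF1A, the main TNF receptor, had 571 FPKM in the Holstein pool, 424 in the Jersey pool and 1104 in the Cholistani pool. It was thus highest in the library where TNF was highest, at 1.94 times Holstein, less than 2-fold, and 2.61 times Jersey. The IL6 receptor genes were ordered the other way. IL6R had 1268, 970 and 855 FPKM, and IL6ST, the signal-transducing chain, had 110.4, 96.6 and 52.8 FPKM, lowest in Cholistani, where IL6 had its value. IL10RA, the ligand-binding chain for IL10, had 620, 423 and 317 FPKM and was also lowest where its ligand was highest. IL6R and IL10RA were within 2-fold between Cholistani and either taurine library, and IL6ST was within 2-fold of Jersey. A link between receptor and ligand levels was not tested. In all, 2 receptor genes were higher by 2-fold or more in Cholistani than in Holstein, 1 (IL6ST) was lower and 6 were neither, and with rescaled values 0 were higher and 4 lower. For this list and those below, 19.7% of all 15284 models were higher and 13.7% lower than in Holstein as deposited. After rescaling 1773 models were higher and 4199 lower.

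Receptors of this kind signal through JAK kinases and STAT factors, and SOCS proteins shut the signal off. Of 12 such genes found, SOCS1, which limits IFNG signalling, had 67.1, 37.8 and 209 FPKM in the 3 libraries (values without a breed are in the order Holstein, Jersey, Cholistani), and SOCS3, which limits IL6 signalling, 116, 128 and 298 FPKM. Both inhibitors were higher by 2-fold or more in Cholistani than in either taurine library. SOCS5 (67.1, 66.5 and 29.9 FPKM) and the kinase TYK2 (259, 223 and 123 FPKM) were at least 2-fold lower than in Holstein, and the other 8 were neither. STAT3, the factor downstream of IL6 and IL10, had 399, 379 and 399 FPKM, and STAT5A, which IL2 activates, 348, 347 and 413 FPKM. After rescaling, 0 of the 12 were higher than in Holstein and 4 were lower, where 1773 and 4199 of all 15284 models were.

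Cytokine messages are destroyed with the help of proteins that bind them. ZFP36, which binds the TNF message and recruits the enzymes that remove its poly(A) tail, had 1053 and 1138 FPKM in the taurine libraries and 5468 FPKM in Cholistani, or 5.19 times its level in Holstein. The ratio of TNF to ZFP36 was 0.124 in Holstein, 0.114 in Jersey and 0.0772 in Cholistani, so ZFP36 differed by a larger factor than TNF. ZC3H12A, an RNase that cuts the IL6 message, had 72.4, 77.8 and 192 FPKM. The roquin genes, whose products act on the TNF message, stood the other way, RC3H2 at 54.2, 40.5 and 17.4 FPKM and RC3H1 at 91.1, 89.1 and 48.2 FPKM. CNOT7, an enzyme that removes poly(A) tails, had 563, 524 and 574 FPKM. Of the 6 decay genes found, 2 were higher by 2-fold or more in Cholistani than in Holstein, 1 lower and 3 neither, and with rescaled values 1 was higher and 2 lower.

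Downstream of the TNF receptor, TNFAIP3, a ubiquitin-editing brake on NF-kappaB, had 76.9 FPKM in the Holstein pool, 64.0 in the Jersey pool and 270 in the Cholistani pool, and was higher by 2-fold or more in Cholistani than in both. It was the single gene past 2-fold among the 10 found in the list of cytokine release and TNF receptor signalling. ADAM17, the protease that sheds TNF from the cell surface, had 157, 120 and 97.7 FPKM, and RHBDF2, its carrier, 455, 593 and 593 FPKM. MAPKAPK2, the kinase that stabilizes the TNF message, had 598, 528 and 896 FPKM, and TRAF2, an adaptor of the TNF receptors, 178, 218 and 266 FPKM. After rescaling TNFAIP3 was still past 2-fold, and 2 genes of this list were lower.

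Of the 9 T helper lineage factors found, BATF (496, 687 and 1256 FPKM), RORA (52.4, 45.3 and 137 FPKM) and RUNX3 (470, 488 and 1019 FPKM) were higher by 2-fold or more in Cholistani than in Holstein, none was lower and 6 were neither. NFATC3, which switches on cytokine genes after T cell activation, had 198, 192 and 110.4 FPKM. With rescaled values no factor was higher and 2 were lower, NFATC3 among them. The levels of TBX21, the factor of IFNG-making cells, were 489, 451 and 647 FPKM, and those of GATA3, the factor of IL4-making cells, 94.9, 128 and 172 FPKM (both named after their values were seen). Both were thus present in every library, although IL4 was listed at 0 in all and IFNG in the taurine libraries.

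Of the 13 genes listed as inducible by IFNG, 6 were not found by name and 5 had a value. IRF1 (1674, 1464 and 4221 FPKM), WARS1 (1366, 1124 and 3853 FPKM) and SOCS1 were higher by 2-fold or more in Cholistani than in Holstein, and CIITA was neither (528, 763 and 440 FPKM, named after its values were seen). CXCL10, a chemokine induced by interferons, was lower, with 182 FPKM in the Holstein pool, 128 in the Jersey pool and 30.0 in the Cholistani pool. CXCL9 and CXCL11, its relatives, were listed at 0 in all 3 libraries (named after their values were seen). So CXCL10, the only chemokine gene of this list with a value, did not have the order of IRF1 and WARS1. After rescaling 0 genes were higher than in Holstein and CXCL10 remained lower.

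Among the other cytokines above 0, 5 of 10 were higher by 2-fold or more in Cholistani than in Holstein and none was lower. OSM, an IL6-family cytokine, had 13.6, 14.5 and 73.0 FPKM, and MIF, a macrophage cytokine, 424, 691 and 1956 FPKM. IL1A and IL1B encode the interleukin 1 ligands, which start inflammation beside TNF. IL1A was listed at 0 in both taurine libraries and had 86.0 FPKM in Cholistani, and IL1B had 89.3, 51.4 and 1851 FPKM. IL1B had 4.38 times the level of TNF in Cholistani and 0.683 and 0.397 times in Holstein and Jersey, so TNF was the more abundant of the pair in the taurine libraries. TGFB1, the most abundant of these by its mean, had 1760, 1610 and 2415 FPKM. After rescaling 4 were higher and 2 lower.

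**Figure D4:**
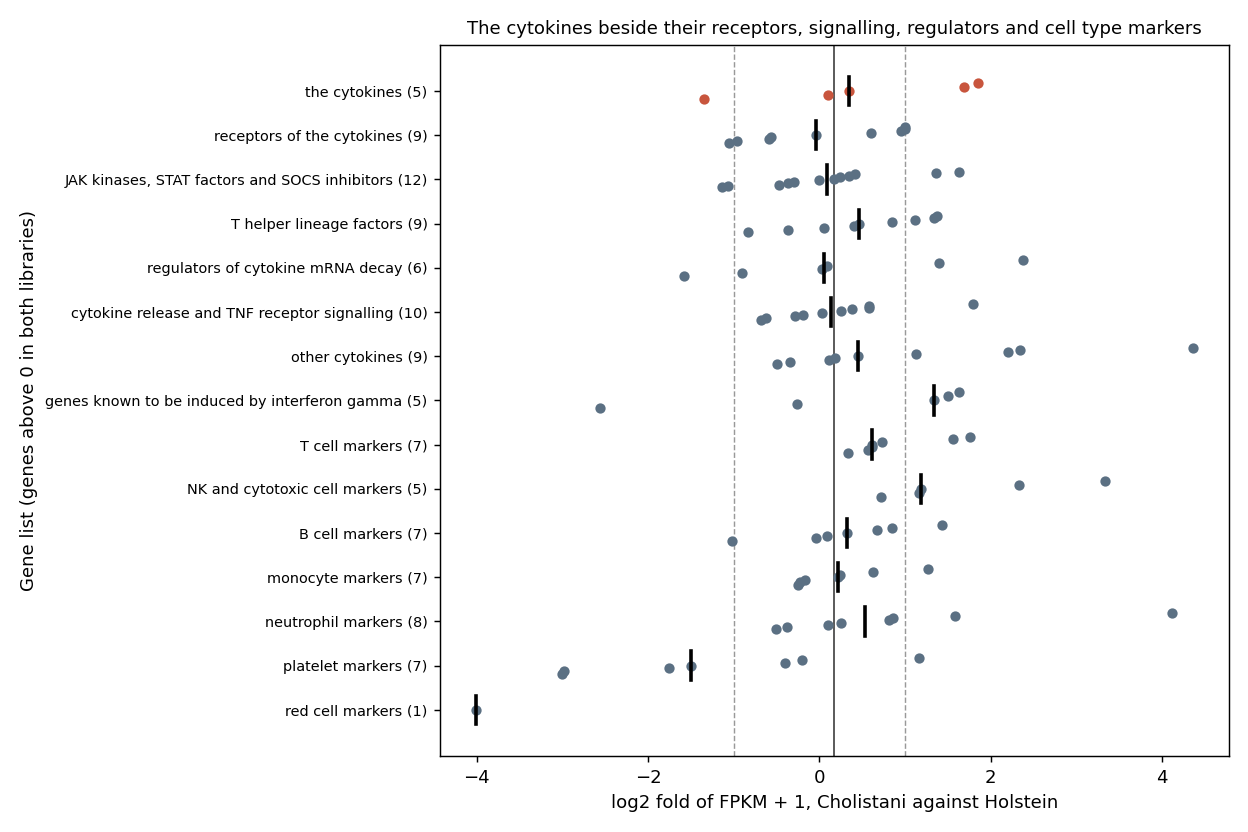
Log2 folds of FPKM + 1 between Cholistani and Holstein for the cytokines (red) and for the lists set beside them, 1 point per gene above 0 in both libraries, with the number of genes in parentheses and the median as a black bar; the vertical line is the median of all such models (0.17) and dashed lines mark 2-fold. The cytokines are spread from IL12B at -1.35 to IL10 at 1.85, the natural killer list has its median at 1.19 and the platelet list at -1.50.

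Several cell type markers differed between the libraries together with the cytokines, and their part in the cytokine values was not tested. Of 6 natural killer and cytotoxic genes, 4 were higher by 2-fold or more in Cholistani than in Holstein, GZMB (42.3, 52.3 and 436 FPKM), NKG7 (275, 219 and 1386 FPKM), NCR1 (700, 502 and 1594 FPKM) and KLRD1, and GZMA was lower (8.63 and 11.5 FPKM, listed at 0 in Cholistani). TYROBP, the most abundant, had 5161, 4213 and 8523 FPKM. Rescaling left 2 of this list higher, GZMB and NKG7, and GZMA lower. Of the 7 T cell markers, CD8A (255, 236 and 866 FPKM) and CD3E (2041, 2127 and 6016 FPKM) were higher and none was lower, and rescaling left CD8A alone. CD3G had 1016, 1072 and 1280 FPKM, CD5 662, 561 and 1017 FPKM, and CD28 91.0, 65.8 and 152 FPKM.

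The markers of other leukocytes were mixed. Of the 7 B cell markers CD79A was higher in Cholistani than in Holstein (5281, 6190 and 14273 FPKM) and PAX5 lower (296, 381 and 145 FPKM), while VPREB3 had 180, 323 and 288 FPKM. Rescaling left none higher and PAX5 lower. Of the 7 monocyte markers TLR4 was higher (130, 119 and 312 FPKM) and none lower, and with rescaled values none was either. CD14 had 342, 237 and 398 FPKM, TLR2 351, 303 and 416 FPKM, and AIF1 2467, 1278 and 2109 FPKM. Of the 8 neutrophil markers, CXCR2 (33.5, 7.62 and 598 FPKM) and CSF3R (657, 532 and 1976 FPKM) were higher and none was lower. The most abundant of them had lower values in Cholistani than in Holstein, S100A12 with 17413, 12184 and 13418 FPKM and S100A8 with 11065, 9500 and 7767 FPKM. MMP9 had 10.1 FPKM in Holstein and 19.3 FPKM in Cholistani and was listed at 0 in Jersey. Rescaling left CXCR2 higher and made S100A8 and S100A12 lower. KLRD1 and GP9 are named after their values were seen.

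Of the 7 platelet markers, 4 were lower by 2-fold or more in Cholistani than in Holstein, TUBB1 (4430, 2997 and 551 FPKM), CLU (941, 668 and 118 FPKM), TREML1 (155, 80.8 and 45.5 FPKM) and SELP (126, 80.7 and 43.7 FPKM). GP9 was higher (84.5, 104 and 190 FPKM), and PPBP was neither (821, 939 and 621 FPKM). Rescaling left none higher and 5 lower. Their sum of 6630, 4920 and 1631 FPKM was mostly TUBB1 in the taurine libraries. Of the red cell markers, ALAS2 (536, 363 and 32.3 FPKM) and EPB42 (13.5 and 9.94 FPKM, listed at 0 in Cholistani) were lower, and HBA was higher (0, 11.5 and 69.3 FPKM), also with rescaled values.

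Set against these markers, TNF had 31.8 FPKM per 1000 FPKM of summed monocyte markers in Holstein, 52.8 in Jersey and 101.7 in Cholistani. Per 1000 FPKM of summed T cell markers it had 23.4, 22.9 and 36.3, and its ratio to CD3E alone was 0.0641, 0.0609 and 0.0701. TNF was thus highest in Cholistani on each of these scales, by a margin that depended on the marker. LTA per 1000 FPKM of summed T cell markers was 14.1, 15.5 and 7.29, and IL16 was 47.2, 53.7 and 28.8, so both were lowest in Cholistani on this scale. CD3E alone gave 6016 of the 11621 FPKM of that sum in Cholistani. Per 1000 FPKM of summed monocyte markers LTA was 19.2, 35.7 and 20.4, and IL16 was 63.9, 124 and 80.6, so both were lowest in Holstein there.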

How the data were processed

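Leukocyte mRNA of 3 pooled samples was analysed, 1 library per breed. The authors aligned paired-end reads to btau4.0 with TopHat 1.0.14 (Bowtie 0.12.7) and assembled and quantified transcripts with Cufflinks 0.9.3. The deposited table gives FPKM per gene model, to which the authors had applied upper-quartile normalization and a sequence bias correction, and nothing further was applied. For 5 models no taurine value was given, and they were left out. Listed starts were taken to count from 0, since the span then equalled the RefSeq hairpin length for 255 of 498 miRNA models, and for 0 when counted from 1, so 1 was added. No genome or sequence was used here.

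The 10 cytokines, 14 further lists (203 genes, 122 found by name) and the rules below were chosen with earlier results of these data known. Names were matched by symbol or entry name, the most abundant model was taken, and merged models or bare accessions were not matched. Models with a gene name (10844) exclude these, small RNA loci and LOC symbols. Log2 folds used a pseudocount of 1 FPKM and a threshold of 2-fold. No test was possible. Genes named per list are the 4 farthest from 0 between Cholistani and the taurine mean and the 2 most abundant, beside receptor subunits, and others are marked in the text. Some genes that this rule picks are not reported here. For the 2 most abundant cytokines, the 3 models of most similar pattern were named, out of those with a gene name and at least 50 FPKM in the highest library. Alternatives were pseudocounts of 0.1 and 10 FPKM, a minimum of 10 FPKM, centring, rescaling, summed models and detection limits of 1 and 10 FPKM. The procedure was tested on simulated data. Python 3.11.15, pandas 2.3.3, numpy 2.4.6 and matplotlib 3.10.9 were used.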

Additional observations from a re-analysis of the deposited data

How the results depend on the processing

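The number of cytokines at least 2-fold higher in Cholistani was 4 against each taurine library with the other pseudocounts, centring and rescaling, but IL6 and IFNG (against both) and IL10 (against Jersey) stand there against a value of 0. With a pseudocount of 10 FPKM, the number at least 2-fold lower was 0 in place of 1 for Cholistani against Holstein and 1 in place of 2 for Jersey against Holstein, since IL12B then came within 2-fold. With a detection limit of 10 FPKM, 5, 3 and 6 cytokines were detected in Holstein, Jersey and Cholistani. Only IL12B fell below this limit, in Jersey and in Cholistani. The share of all models that reach 10 FPKM is not given here, so the counts cannot be weighed against it. Each cytokine stood on 1 model and each one detected passed 10 FPKM in a library, so summing models and that minimum could not move a value. After rescaling to equal sums, the median log2 fold between Cholistani and Holstein was -0.71 for the receptors, -0.59 for JAK, STAT and SOCS genes, -0.21 for T helper factors, -0.62 for decay regulators, -0.53 for release and TNF receptor signalling, -0.22 for other cytokines and 0.66 for genes induced by IFNG. As deposited these were -0.04, 0.08, 0.46, 0.06, 0.14, 0.46 and 1.33. For the markers it was -0.059 for T cells, 0.51 for natural killer cells, -0.36 for B cells, -0.46 for monocytes, -0.14 for neutrophils, -2.17 for platelets and -4.67 for red cells (1 gene), and 0.62, 1.19, 0.32, 0.22, 0.53, -1.50 and -4.01 as deposited. No paired analysis was possible because each breed had 1 library. The number of fragments is unknown, so the depth at which a gene listed at 0 would have been seen is not known; 5% of the values above 0 lay below 6.48 (Holstein), 6.15 (Jersey) and 7.01 FPKM (Cholistani).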

Other observations

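The genes with a name and at least 50 FPKM in the highest library whose levels over the 3 libraries were most like those of TNF, by the distance between log2(FPKM + 1) values centred on their mean, were NUDT1, which clears oxidized nucleotides (42.9, 42.5 and 139 FPKM in the order Holstein, Jersey, Cholistani, distance 0.0092), TRIB2, a pseudokinase (104, 103 and 332 FPKM, distance 0.0199), and a model listed as SNAA_BOVIN (128, 123 and 404 FPKM, distance 0.0342). Of 5298 candidates, 18 lay within 0.1 of TNF and 180 within 0.1 of IL16. Nearest to IL16 were models listed as EI2BA_BOVIN (45.6, 53.2 and 58.3 FPKM, distance 0.0095), ECHD1_BOVIN (150, 171 and 190 FPKM, distance 0.0135) and PTCD3_BOVIN (123, 141 and 155 FPKM, distance 0.0151). These likenesses rest on 3 values each.

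Some models next to IFNG, IL6 and IL10 had their highest value in Cholistani, and others did not. The nearest model before IFNG, which has no name and lies 93033 bases away (chromosome 5, 49256755 to 49258175), had 121 and 94.3 FPKM in the taurine libraries and 1070 FPKM in Cholistani. The nearest after IL6, also without a name, lies 76139 bases away (chromosome 4, 32837051 to 32837862), was listed at 0 in both taurine libraries and had 12.5 FPKM in Cholistani. PIGR, the receptor that carries IgA into secretions, in the block of IL10, was likewise listed at 0 in both taurine libraries and had 10.4 FPKM in Cholistani. Of all models from 10 to 20 FPKM in Cholistani, 28.3% were listed at 0 in both taurine libraries. LOC514916, after IFNG, had 238, 261 and 158 FPKM in the order Holstein, Jersey, Cholistani. The merged model FAIM3,SARG_BOVIN in the block of IL10 had 536, 691 and 614 FPKM. RASSF5, before the block, had 694, 681 and 695 FPKM, and the unnamed model after the block 29.6, 21.4 and 23.8 FPKM. RAPGEF5, before IL6, and FCAMR, in the block, were listed at 0 in all 3 libraries. The models of this paragraph were named after their values were seen.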
